A study of Mus musculus with 8 samples.

Results

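Mitochondrial ribosomal proteins are the nuclear-encoded proteins of the ribosome inside mitochondria, and they were taken here as the genes whose symbol in the platform annotation begins with Mrpl or Mrps followed by a digit. The rule used gene names only and no measured value. It found 76 genes among the 18193 genes with a single-symbol probe set on the array, and all 76 passed the filter on dim signals. Of these, 49 encode proteins of the large subunit, 26 encode proteins of the small subunit, and 1, Mrps36, carries the family name but encodes a component of the 2-oxoglutarate dehydrogenase complex. The symbols follow history and not always place, so Mrps18a and Mrps30, whose proteins sit in the large subunit, were counted there.

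The mitochondrial ribosome translates the few messages encoded by mitochondrial DNA, all of them for subunits of the oxidative phosphorylation complexes, so each of these complexes but one depends on it. Its RNA comes from the mitochondrial genome, while its proteins are made in the cytosol and imported. Some of the proteins descend from bacterial ribosomal proteins, and others were added in mitochondria. Pluripotent stem cells rely strongly on glycolysis, and the amount and use of mitochondria change when cells are reprogrammed or differentiate.

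RNA from mouse induced pluripotent stem (iPS) cells and embryonic stem (ES) cells was hybridised to 8 Affymetrix 3' expression arrays. There were 3 iPS lines, called lines 1, 2 and 3, and a normal ES line as control, with 2 arrays each. The series title describes the iPS cells as free of integrated vectors. All 4 lines were C57BL/6 and male, were kept in N2B27 medium containing mouse leukaemia inhibitory factor (LIF) and were taken at passage 7 to 10, and no label names an introduced allele, the starting cell or the reprogramming method. Each group is 1 cell line, so a difference between groups is one between single lines. The titles call the arrays biological replicates without saying that they came from separate cultures, and the p-values then measure only how far these arrays differ, and that spread may be technical.

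The signals were on a common scale as deposited, with the same trimmed mean of 500.004 in every array and medians between 54.1 and 64.3. All 8 of the pluripotency markers examined exceeded the low-signal floor of 37.1 in every array. Their summed signal was 95699 to 101768 in line 1, 103990 to 106897 in line 2 and 99958 to 103686 in line 3, against 101722 to 109371 in ES cells. In line 2, 2 of the 8 were lower, the pluripotency factor Pou5f1 by a difference of -0.23 and Utf1 by one of -0.86 on the log2 scale, and 0 were higher. The probe sets for the 3' and 5' parts of beta-actin, a sign of RNA integrity, had signal ratios of 1.74 and 1.79 in line 2, against 1.49 to 1.62 in the other 6 arrays. The same ratio for Gapdh was 0.915 and 0.946 in line 2, against 0.856 to 0.935 in the other 6 arrays, so it overlapped.

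Levels of the 76 genes were well above the floor in every array, and the lowest single signal was 678. Mean signals ran from 734 to 10575. These levels are not set against each other, because probe sets differ in how strongly they bind. In a bulk sample, fewer cells of a type and less RNA per cell cannot be told apart.

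The main pattern was in line 2. Of the 76 genes, 25 were lower and 2 higher in line 2 than in ES cells, while across all genes tested 10.6% were lower and 16.1% higher there. In line 3, 2 of the 76 were higher (1.58% of all genes tested) and 0 lower (2.58%). In line 1, 0 were higher (1.21%) and 0 lower (1.12%) by limma's test. Of the 76, 4 had an unadjusted p under 0.05 there, as did 1955 of the 14008 genes tested. The changes were small, at most 1.54-fold in line 2, and the other 49 genes did not pass the test there. A change is called where the limma p-value, after Benjamini-Hochberg adjustment across the 14008 genes tested, was under 0.05. Differences are on the scale log2(signal + 12.4) and carry the standard error (SE) of the fit.

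**Figure D1:**
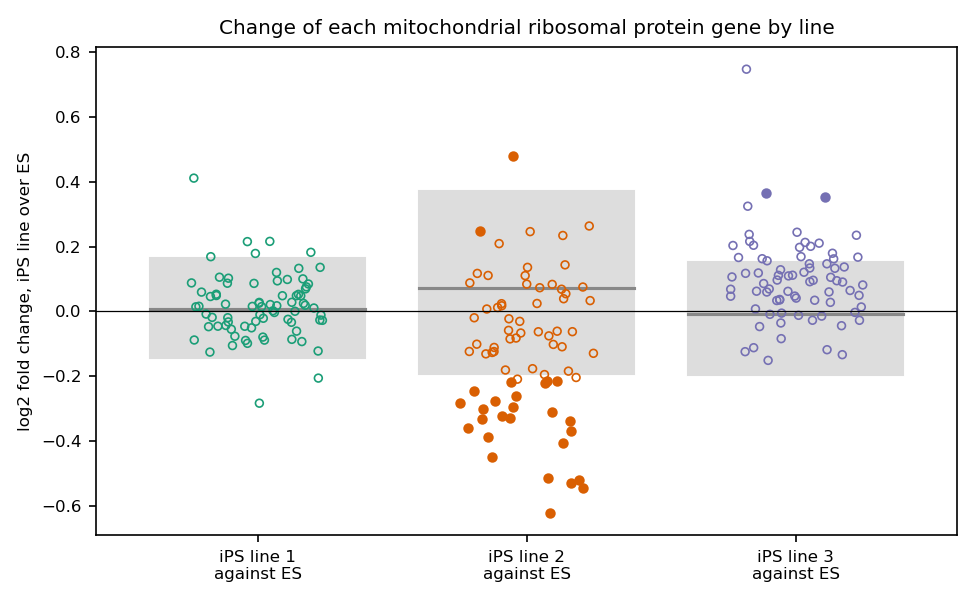
Each point is a mitochondrial ribosomal protein gene, placed by its log2 fold change between an iPS line and ES cells (vertical axis) for lines 1, 2 and 3 (horizontal axis). Filled points passed the test, the grey box spans the middle 50% of all 14008 genes and its line is their median, and sideways spread is only for legibility. In line 2, 60 of the 76 points sit below the median of all genes, in line 3, 62 sit above it, and in line 1, 35 sit below it and 41 above.

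For line 2, the lower genes were thus 32.9% of the family and the higher ones 2.63%. The median difference over the 76 genes was -0.11 on the log2 scale, against 0.07 over all genes. Signals of the 2 line 2 arrays lay below both ES arrays for 38 genes (50% of them, where 24.5% of all genes tested did so) and above both for 10 genes (13.2%, where 37% of all genes did so). For 36 genes (47.4%, where 14.3% of all genes tested did so) the line 2 arrays were below all other 6 arrays, and for 3 genes, Mrpl14, Mrpl23 and Mrpl32, they were above them (3.95%, where 23.8% of all genes did so). The count of lower genes became 15 when line 2 replicate 2 was left out and 15 when ES replicate 2 was left out, with 3 higher each time. The beta-actin ratios were highest in line 2, at 1.74 and 1.79. In line 3 they were 1.59 and 1.60, where the medians of the 76 genes relative to the ES mean were 0.11 and 0.07. The Gapdh ratio was highest in line 2 replicate 2, at 0.946. In line 2 replicate 1 it was 0.915, below the 0.935 of line 3 replicate 1. The part of RNA integrity in the line 2 differences was not tested.

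The promoters of genes at both ends of the line 2 difference are shown to let their letters be compared. NRF1 (nuclear respiratory factor 1), GABP (an ETS-family factor) and YY1 are known to bind promoters of many nuclear genes for mitochondrial proteins. Each sequence is the 250 bases before the gene's start, 5' to 3' in the direction of the gene, from RefSeq's promoter table for build GRCm38.p6. Capitals mark matches on either strand to an NRF1 core (GCATGCGC), an NRF1 repeat (GCGCA and GCGC with 1 base between them), an ETS core (CCGGAAG), a YY1 core (AAGATGGC) or an E-box (CACGTG), and the NRF1 forms can overlap. Mrps18b lies at chr17:35916441-35916690 on the minus strand and Mrpl17 at chr7:105811088-105811337 on the minus strand, and both were lower in line 2. Mrpl23 lies at chr7:142532782-142533031 on the plus strand and Mrpl32 at chr13:14613038-14613287 on the minus strand, and both were higher in line 2.
Mrps18b: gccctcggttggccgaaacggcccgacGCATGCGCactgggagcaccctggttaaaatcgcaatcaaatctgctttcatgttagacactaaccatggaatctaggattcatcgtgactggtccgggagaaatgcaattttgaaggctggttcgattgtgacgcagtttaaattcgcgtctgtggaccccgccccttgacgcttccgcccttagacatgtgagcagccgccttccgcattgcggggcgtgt
Mrpl17: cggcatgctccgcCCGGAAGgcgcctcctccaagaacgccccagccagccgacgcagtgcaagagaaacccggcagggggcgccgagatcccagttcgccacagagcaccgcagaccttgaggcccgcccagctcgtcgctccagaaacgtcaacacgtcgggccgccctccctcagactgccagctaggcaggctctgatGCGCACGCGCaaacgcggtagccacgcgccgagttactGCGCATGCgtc
Mrpl23: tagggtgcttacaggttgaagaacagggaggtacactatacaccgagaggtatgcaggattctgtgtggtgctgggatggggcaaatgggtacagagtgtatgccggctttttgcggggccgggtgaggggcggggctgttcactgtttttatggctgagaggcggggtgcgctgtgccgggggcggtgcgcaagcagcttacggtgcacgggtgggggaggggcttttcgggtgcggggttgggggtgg
Mrpl32: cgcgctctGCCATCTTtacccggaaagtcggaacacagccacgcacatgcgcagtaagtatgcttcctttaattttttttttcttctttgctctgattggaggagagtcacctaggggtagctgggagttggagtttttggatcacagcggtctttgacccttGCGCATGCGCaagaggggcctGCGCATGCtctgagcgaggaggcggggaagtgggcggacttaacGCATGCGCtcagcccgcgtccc
The windows of Mrps18b, Mrpl17 and Mrpl32 held NRF1 letters, that of Mrpl17 also an ETS core and that of Mrpl32 a YY1 core, while none of these letters was in the window of Mrpl23.

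Windows were found for 67 of the 76 genes. An ETS core was present in 25.4% of them, against 7.83% of the 27025 genes in the promoter table. Those 27025 were not limited to genes on the array or to the 14008 tested, so the 2 sets may differ in more than membership of the family. The NRF1 core was in 11.9% and the NRF1 repeat in 13.4%, against 2.56% and 4.23% over the 27025 genes. A YY1 core was in 5.97%, against 1.83%, and the E-box, the site of the Myc family, in 7.46%, against 6.86%. Among the genes lower in line 2, 8 of 23 windows had an ETS core and 3 of 23 an NRF1 core, against 9 of 44 and 5 of 44 windows of the other genes of the family. The NRF1 repeat was in 2 of 23 windows of the lower genes, against 7 of 44 of the others, the YY1 core in 1 of 23, against 3 of 44, and the E-box in 3 of 23, against 2 of 44. A match describes the letters and is not evidence of binding.

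**Figure D2:**
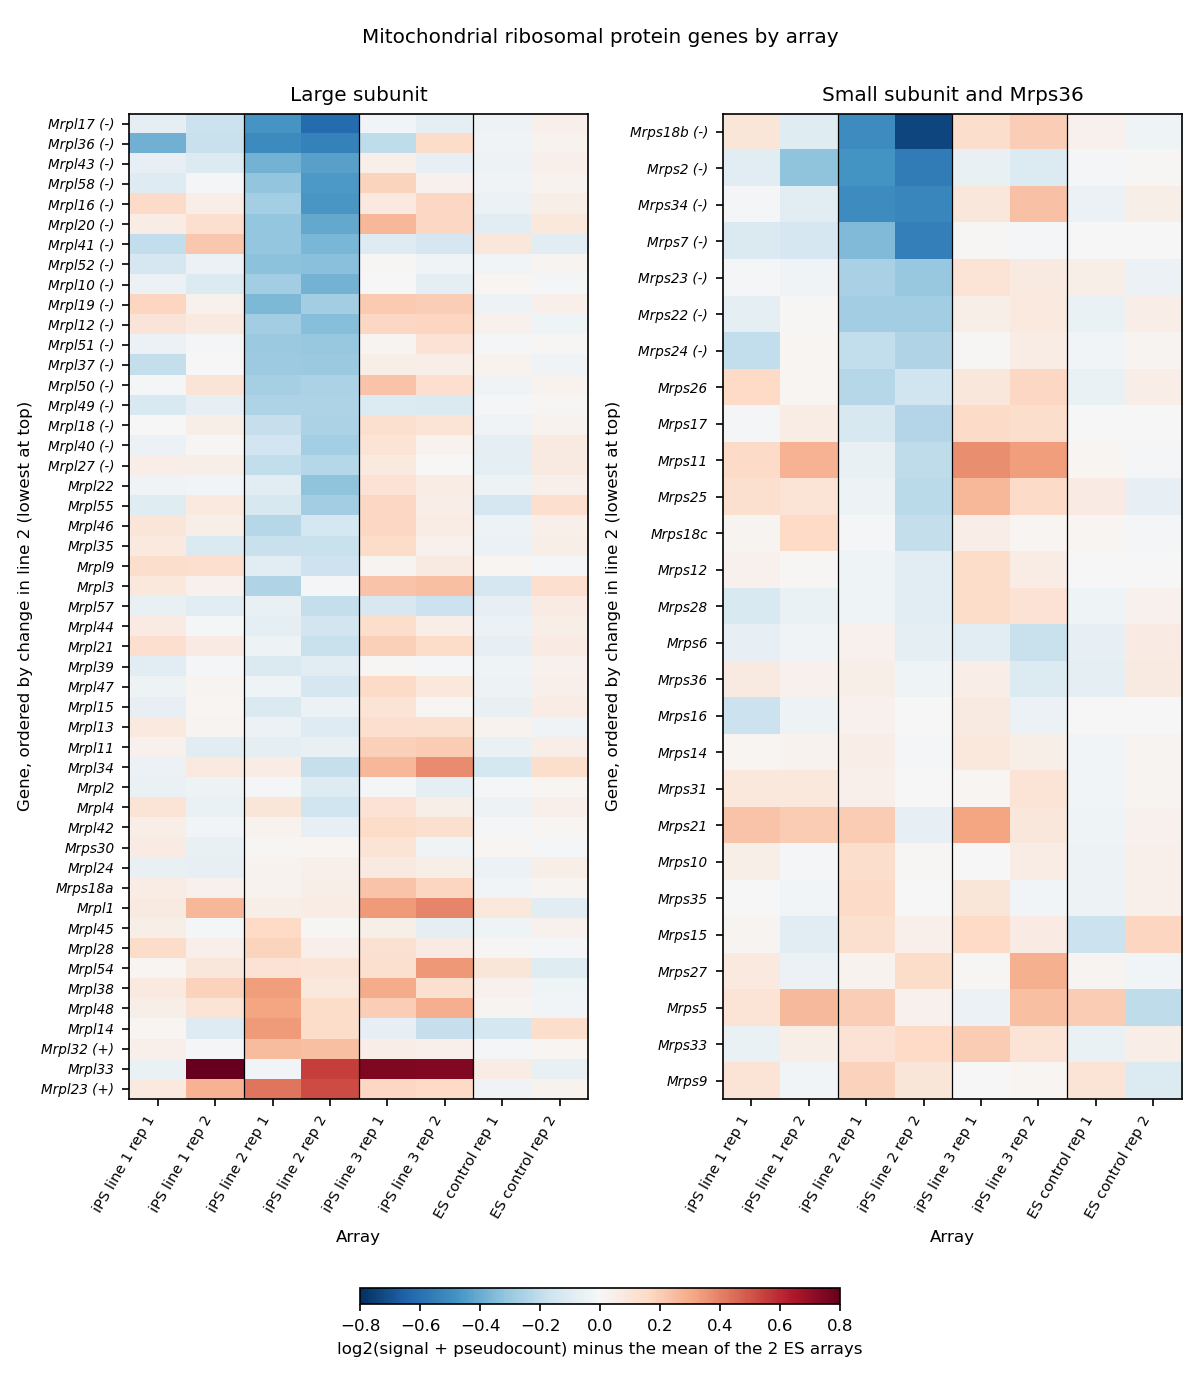
Rows are the 76 genes, split by subunit and ordered by the line 2 difference, columns are the 8 arrays, and colour is log2(signal + 12.4) minus the mean of the ES arrays, with values past the ends of the colour bar drawn in its end colours. Values below the ES mean are blue, for 48 of the 76 genes (63.2%) in line 2 replicate 1 and 54 (71.1%) in line 2 replicate 2. Of all genes tested, 42.2% and 42.1% were below it in these arrays. A plus or minus after a name marks a gene called higher or lower in line 2. Mrpl33 stands out with high values in both line 3 arrays and in 1 array each of lines 1 and 2.

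The small subunit decodes the message. In line 2, 7 of its 26 genes were lower (26.9%) and 0 higher, with a median log2 difference of -0.06. Of all genes tested, 10.6% were lower and 16.1% higher there. The lowest was Mrps18b, 1 of the 3 mitochondrial counterparts of bacterial protein S18. Its signals were 2693 and 2290 in line 2, 4086 and 3581 in line 1, 4210 and 4376 in line 3, and 3910 and 3740 in ES cells. The line 2 arrays were the lowest, apart from all other arrays. The log2 difference from ES cells was -0.62 ± 0.09 (SE), which is 1.54-fold lower (limma adjusted p = 0.000199).

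The other counterparts of S18 did not pass the test in line 2. Mrps18a, whose protein belongs to the large subunit, had signals of 2131 and 2161 in line 2, 2176 and 2143 in line 1, 2447 and 2357 in line 3, and 2059 and 2117 in ES cells. Mrps18c, of the small subunit, had 4987 and 4397 in line 2, 5092 and 5603 in line 1, 5218 and 5070 in line 3, and 5081 and 4969 in ES cells. Their log2 differences in line 2 were 0.04 and -0.10, so the 3 related genes did not move together.

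Mrps34 encodes a protein that mitochondria added to the small subunit. Its signals were 3184 and 3146 in line 2, 4468 and 4260 in line 1, 4813 and 5311 in line 3, and 4370 and 4671 in ES cells. Again both line 2 arrays were below all others, and the log2 difference from ES cells was -0.51 ± 0.07 (limma adjusted p = 0.000148).

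Mrps2, a counterpart of bacterial S2, had signals of 3140 and 2970 in line 2, 4113 and 3505 in line 1, 4204 and 4060 in line 3, and 4355 and 4403 in ES cells. All 6 iPS arrays were below both ES arrays, the line 2 arrays furthest, and the line 2 difference was -0.52 ± 0.08 (limma adjusted p = 0.000322). Mrps7, a counterpart of bacterial S7 in the head of the small subunit, had signals of 1593 and 1391 in line 2, 1880 and 1848 in line 1, 2050 and 2010 in line 3, and 2031 and 2037 in ES cells. Its line 2 arrays were the lowest of the 8, with a difference of -0.45 ± 0.08 (limma adjusted p = 0.00105). Mrps22, Mrps23 and Mrps24 were the remaining lower genes of this subunit, with differences of -0.28, -0.28 and -0.22.

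Mrps12 and Mrps16 are counterparts of bacterial S12, near the decoding centre, and S16. Mrps12 had signals of 4192 and 4050 in line 2, against 4297 and 4308 in ES cells, and Mrps16 had 4900 and 4801 in line 2, against 4772 and 4811 in ES cells. Neither passed the test, with log2 differences of -0.06 and 0.02 in line 2. Mrps36, outside the ribosome, had 2111 and 1996 in line 2, against 1940 and 2150 in ES cells, and its groups overlapped. Dap3, which encodes a GTP-binding protein of the small subunit and does not carry the family name, was higher in line 2. Its signals were 6565 and 5868 in line 2, against 5097 and 5117 in ES cells, a difference of 0.28 ± 0.07 (limma adjusted p = 0.00713).

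**Figure D3:**
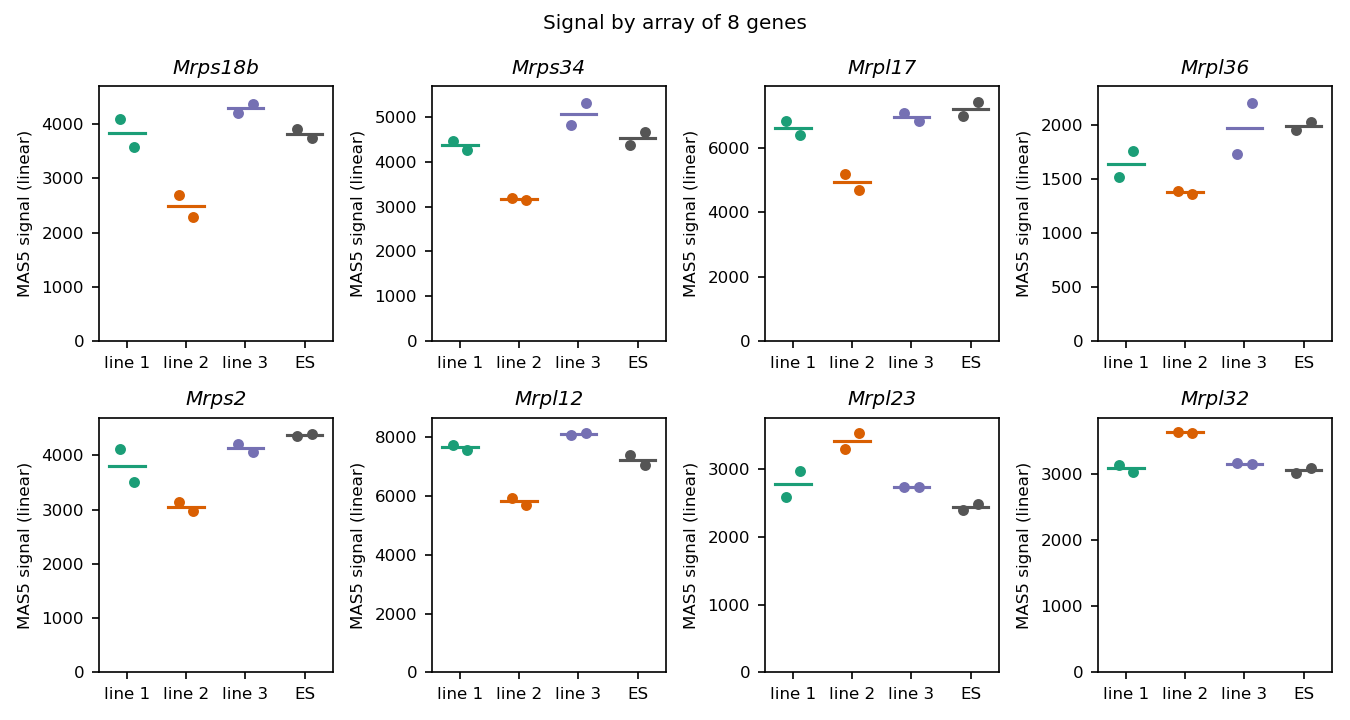
Points are the deposited signals (linear scale, vertical axis from 0) of the 2 arrays of each line, the 3 iPS lines followed by ES cells, for 8 genes, and bars are group means. The line 2 points are lowest in the panels of Mrps18b, Mrps34, Mrpl17, Mrpl36, Mrps2 and Mrpl12 and highest in those of Mrpl23 and Mrpl32.

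The large subunit forms the peptide bonds. In line 2, 18 of its 49 genes were lower (36.7%) and 2 higher (4.08%), with a median log2 difference of -0.12. Of all genes tested, 10.6% were lower and 16.1% higher there. Mrpl17, a counterpart of bacterial L17 near the exit of the peptide tunnel, had signals of 5198 and 4709 in line 2, 6845 and 6413 in line 1, 7113 and 6851 in line 3, and 7001 and 7426 in ES cells. Its line 2 arrays were below the other 6, and the difference from ES cells was -0.54 ± 0.07, or 1.46-fold lower (limma adjusted p = 8.03e-05). The mean of all its probe sets, of which the others were dim, did not pass the test.

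The tunnel exit also held the gene with the largest higher call. Mrpl23, a counterpart of bacterial L23, had signals of 3295 and 3520 in line 2, 2582 and 2964 in line 1, 2737 and 2733 in line 3, and 2399 and 2487 in ES cells. All iPS arrays were above both ES arrays, and those of line 2 were the highest. The line 2 difference was 0.48 ± 0.08 (limma adjusted p = 0.000567). Of the 8 genes listed for the tunnel exit and membrane side, Mrpl17 was the lower one, Mrpl23 the higher one, and 6 did not pass the test in line 2. The list was thus 12.5% lower and 12.5% higher, near the 10.6% and 16.1% of all genes tested. Among those 6, Mrpl45, whose protein holds the ribosome at the inner membrane, had a difference of 0.08, and Mrpl44, which has a fold related to ribonuclease III, one of -0.11.

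Mrpl32, a counterpart of bacterial L32 whose protein is processed by a mitochondrial protease before it joins the ribosome, was the other higher gene. It had signals of 3632 and 3611 in line 2, 3137 and 3027 in line 1, 3160 and 3144 in line 3, and 3012 and 3088 in ES cells. Line 2 was above all other arrays, while lines 1 and 3 were close to ES cells. The difference was 0.25 ± 0.06 (limma adjusted p = 0.00937), and without ES replicate 1 it was 0.23 with an adjusted p of 0.0706. It did not pass the test when each array was centred on its median.

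The stalk of the large subunit recruits translation factors. Mrpl12, its flexible arm, which has also been described as a partner of the mitochondrial RNA polymerase, had signals of 5939 and 5688 in line 2, 7740 and 7568 in line 1, 8079 and 8129 in line 3, and 7382 and 7037 in ES cells. The line 2 arrays were the lowest and those of line 3 the highest. The line 2 difference was -0.31 ± 0.06 (limma adjusted p = 0.00137). Mrpl10, the base of the stalk, had signals of 1192 and 1108 in line 2, 1397 and 1338 in line 1, 1450 and 1370 in line 3, and 1458 and 1432 in ES cells. The line 2 arrays were the lowest, and the difference from ES cells was -0.33 ± 0.08 (limma adjusted p = 0.00802). For Mrpl10 the adjusted p was 0.057 without ES replicate 1 and 0.0552 without line 2 replicate 2. Mrpl11 and Mrpl54, the other stalk genes tested, did not pass.

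The central protuberance lies at the contact with the small subunit. In line 2, 4 of its 9 listed genes were lower (44.4%) and 0 higher, with a median difference of -0.20. Of all genes tested, 10.6% were lower and 16.1% higher. The 4 were Mrpl18, Mrpl27, Mrpl40 and Mrpl52. Mrpl52 had signals of 4505 and 4491 in line 2, against 5592 and 5741 in ES cells, a difference of -0.33. Mrps30, on the same list, had 2750 and 2753 in line 2, against 2764 and 2693 in ES cells, and did not pass the test.

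Mrpl36, the small zinc-binding counterpart of bacterial L36, had signals of 1394 and 1366 in line 2, 1523 and 1760 in line 1, 1734 and 2208 in line 3, and 1956 and 2033 in ES cells. Line 2 was below all other arrays, although the line 3 arrays lay on either side of the ES arrays. The line 2 difference was -0.53 ± 0.11 (limma adjusted p = 0.00286). Mrpl16, Mrpl19 and Mrpl20 are further counterparts of bacterial proteins, with line 2 differences of -0.37, -0.32 and -0.36. Mrpl43 and Mrpl58 had differences of -0.40 and -0.39, and Mrpl58 is a peptidyl-tRNA hydrolase that became a ribosomal protein. The remaining lower genes, Mrpl37, Mrpl41, Mrpl49, Mrpl50 and Mrpl51, lay between -0.34 and -0.25.

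Grouped by descent, 13 of the 46 genes with a bacterial counterpart were lower (28.3%) and 2 higher (4.35%) in line 2, with a median of -0.08. Of the 29 genes specific to mitochondria, 12 were lower (41.4%) and 0 higher, with a median of -0.18. Of all genes tested, 10.6% were lower and 16.1% higher. The difference between the groups by descent was not tested.

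Some of the lower calls could be compared with further probe sets of the same gene. The 12 lower genes that had any held 19 other probe sets over the filter, of which 14 had a negative line 2 difference. When every probe set was tested on its own, 4 of the 19 were called lower and 0 higher. Of all 25738 probe sets tested in this way, 2281 were lower and 3194 higher. Mrpl19 was lower on its other bright probe set as well, by a difference of -0.37. Mrpl15, chosen after its values were seen, had 8 probe sets: the brightest had a line 2 difference of -0.08 and did not pass, while 3 others were called lower at -0.22, -0.93 and -1.31. No gene of the family had probe sets called in opposite directions in line 2.

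The genes that work with the ribosome did not all follow it in line 2. Of 23 assembly factors tested, 4 were lower (17.4%) and 5 higher (21.7%), where 10.6% and 16.1% of all genes tested were. Their median difference was -0.08, against 0.07 over all genes. Fastkd2, which binds the large-subunit RNA, had signals of 2220 and 2414 in line 2, against 3218 and 3059 in ES cells (difference -0.44 ± 0.07, limma adjusted p = 0.000458). Nsun4 and Mrm2, which methylate ribosomal RNA, were also lower, by differences of -0.46 and -0.43, and so was Mterf4, the partner of Nsun4. Mrm1, another such methyltransferase, was higher, with signals of 443 and 389 in line 2, against 252 and 240 in ES cells (difference 0.72 ± 0.16, limma adjusted p = 0.00583). Mtg1, Ngrn, Mettl15 and Tfb1m were the other higher ones.

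Of 13 factors of mitochondrial translation, 0 passed limma's test in line 2, where 16.1% of all genes tested were higher and 10.6% lower. An unadjusted p under 0.05 was found for 3 of the 13, and for 5195 of the 14008 genes tested. The median difference of the 13 was 0.07, as over all genes. Among them the elongation factor Tufm had 0.16 and its exchange factor Tsfm 0.16. Of 10 genes that copy or transcribe mitochondrial DNA, 1 was lower (10%) and 0 higher, where 10.6% of all genes tested were lower and 16.1% higher. The share of lower genes was thus near that of all genes. The lower one was Polg2, the accessory subunit of the mitochondrial DNA polymerase, at -0.40 ± 0.10 (limma adjusted p = 0.00961). Tfam, which packages mitochondrial DNA, had a difference of -0.17 and the RNA polymerase gene Polrmt one of 0.20, and neither passed the test.

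**Figure D4:**
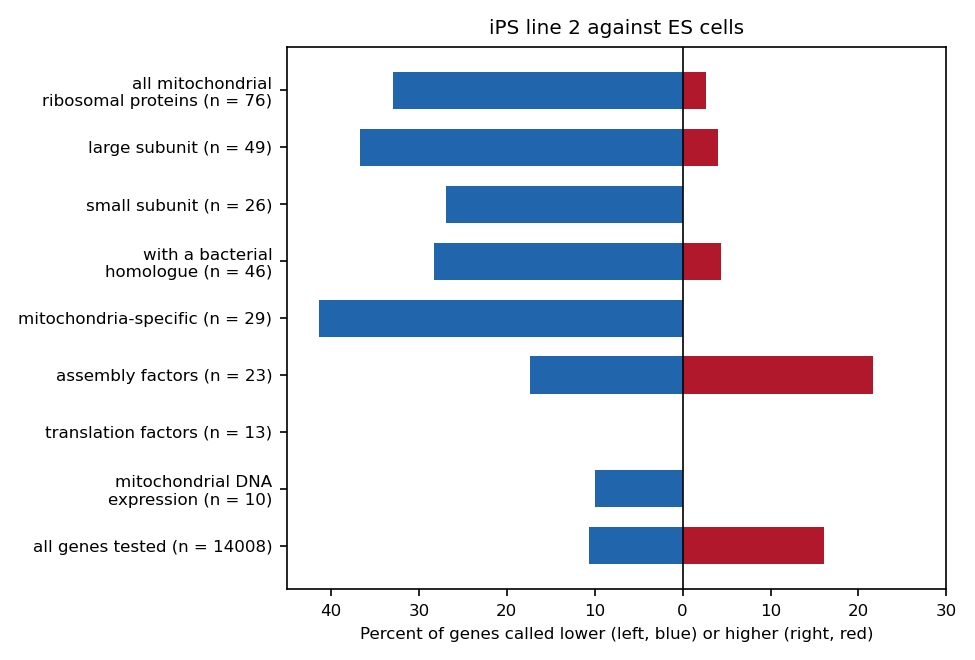
Bars give the percentage of each list's tested genes called lower (blue, to the left) or higher (red, to the right) in line 2 than in ES cells. Mitochondrial ribosomal protein genes lean to the left, at 32.9% lower and 2.63% higher, while all genes tested, in the bottom bar, were 10.6% lower and 16.1% higher, and translation factors have no bar.

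Regulators of nuclear genes for mitochondrial proteins moved both ways in line 2. Of 9 tested, 4 were higher (44.4%) and 3 lower (33.3%), where 16.1% and 10.6% of all genes tested were. Ppargc1b, a coactivator of mitochondrial biogenesis, had signals of 1004 and 1016 in line 2, 404 and 427 in line 1, 473 and 450 in line 3, and 412 and 338 in ES cells. Line 2 stood clear of all other arrays, with a difference of 1.41 ± 0.12 (limma adjusted p = 3.6e-06). Myc, a transcription factor that drives growth and ribosome genes, had signals of 170 and 134 in line 2, 353 and 296 in line 1, 426 and 320 in line 3, and 368 and 414 in ES cells. Its line 2 arrays were the lowest of the 8, with a difference of -1.30 ± 0.17 (limma adjusted p = 0.000159).

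Gabpb1, a subunit of the ETS-family factor GABP, was higher in line 2 by 0.85, and Esrra, a nuclear receptor that works with the PGC-1 coactivators, by 0.80. Mycn was higher by 0.26. Pprc1, the PGC-1-related coactivator, and Yy1 were lower, with differences of -0.34 and -0.27. The DNA-binding subunit Gabpa and Nrf1 itself, at -0.28 and -0.02, did not pass the test.

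In line 3 the family leaned the other way. The median log2 difference was 0.09, against -0.01 over all genes, and 16 of the 76 differences (21.1%) were negative, against 51.1% of those of all genes. Signals of both line 3 arrays exceeded both ES arrays for 43 genes (56.6% of them, where 23.6% of all genes tested did so) and lay below both for 6 (7.89%, where 24.9% of all genes did so). Mrps11, a counterpart of bacterial S11 on the platform of the small subunit, had signals of 1435 and 1400 in line 3, 1233 and 1344 in line 1, 1062 and 960 in line 2, and 1118 and 1095 in ES cells. The line 3 arrays were the highest, and the difference from ES cells was 0.35 ± 0.08 (limma adjusted p = 0.0376).

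Mrpl1, a counterpart of bacterial L1 on the large-subunit arm beside the exit site, had signals of 1424 and 1474 in line 3, 1183 and 1350 in line 1, 1161 and 1173 in line 2, and 1189 and 1060 in ES cells. Line 3 was again above all other arrays, by 0.36 ± 0.09 over ES cells (limma adjusted p = 0.0422). Both calls were lost on leaving out any array of line 3 or ES cells, with adjusted p-values of 0.142 to 0.181 for Mrps11 and 0.0919 to 0.268 for Mrpl1. The other probe sets of Mrpl1 had line 3 differences of 0.14 and -0.23.

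Mrpl33, a counterpart of bacterial L33 and chosen after its values were seen, had the largest SE of the 76 genes. Its signals were 2585 and 2575 in line 3, 1478 and 2820 in line 1, 1507 and 2253 in line 2, and 1597 and 1473 in ES cells. Both line 3 arrays were high, while lines 1 and 2 each had 1 high array and 1 near the ES arrays. The line 3 difference of 0.75 ± 0.23 did not pass the test (limma adjusted p = 0.103). It did pass without either line 1 array (0.0168 and 0.017) and in a fit on the arrays of line 3 and ES cells alone (0.00134).

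For line 1, with 0 calls, the median log2 difference was 0.02, against 0.01 over all genes. Signals of both line 1 arrays lay above both ES arrays for 16 genes (21.1%, where 23.6% of all genes tested did so) and below both for 13 (17.1%, where 20.8% of all genes did so). The shares were near those of all genes. The median SE of a line's difference over the 76 genes was 0.07 on the log2 scale.

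The mean of the 3 iPS lines, each with equal weight, was also set against ES cells. Here 1 of 76 genes was higher and 2 were lower, where 4.27% and 3.03% of all genes tested were. Mrpl23 was the higher one, by 0.27 ± 0.06 (limma adjusted p = 0.0185). Mrps2 and Mrpl17 were the lower ones, with differences of -0.27 ± 0.06 (limma adjusted p = 0.0204) and -0.24 ± 0.05 (limma adjusted p = 0.0193). These genes were also called in line 2, which enters the mean, and the comparisons share the ES arrays.

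Without line 2 the differences in the mean became 0.17 for Mrpl23, -0.14 for Mrps2 and -0.08 for Mrpl17, with adjusted p-values of 0.209, 0.294 and 0.455. The calls were also lost when either ES array was left out, with adjusted p-values of 0.0863 to 0.219. Without line 2, Mrps11 alone was called, at 0.28 higher (limma adjusted p = 0.0439). All 6 iPS arrays were above both ES arrays for 5 genes, Mrpl23, Mrpl28, Mrpl38, Mrpl48 and Mrps18a (6.58%, where 7.17% of all genes tested did so). They were below both for 3 genes, Mrpl2, Mrpl49 and Mrps2 (3.95%, where 5.75% of all genes did so). Of the lists around the ribosome, the mean gave calls among the regulators, with Ppargc1b (0.62), Esrra (0.46) and Mycn (0.23) higher and Myc (-0.55) lower of 9, and 1 of 10 among the genes of mitochondrial DNA expression, Tefm, a transcription elongation factor, at 0.32 higher (limma adjusted p = 0.0496). Without line 2 none of these 5 passed limma's test, at 0.22 for Ppargc1b, 0.29 for Esrra, 0.21 for Mycn, -0.17 for Myc and 0.32 for Tefm, with adjusted p-values of 0.053 to 0.582.

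The iPS lines were also compared with each other, with the spread still estimated over all 8 arrays. In line 1 against line 2, 26 of 76 genes were higher in line 1 and 2 lower, where 9.54% of all genes tested were higher and 13.8% lower, and the median log2 difference was 0.14, against -0.07 over all genes. The largest was Mrps18b at 0.62 ± 0.09 (limma adjusted p = 0.000299), and the lower genes were Mrpl23 and Mrpl32. The count fell to 14 when line 1 replicate 2 was left out and to 13 when line 2 replicate 2 was left out.

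In line 2 against line 3, 3 of 76 genes were higher in line 2 and 40 lower, where 19% of all genes tested were higher and 12.1% lower. The median log2 difference was -0.21, against 0.08 over all genes. Mrps18b was lower by the most, with a difference of -0.79 ± 0.09 (limma adjusted p = 2.48e-05), and Mrpl12 had one of -0.48. The higher genes were Mrpl23, Mrpl32 and Mrpl14, a counterpart of bacterial L14 whose signals were 1307 and 1140 in line 2, 983 and 902 in line 3, and 930 and 1135 in ES cells. The count became 27 without line 2 replicate 2 and 27 without line 3 replicate 1. In line 1 against line 3, 0 of 76 genes were higher and 0 lower by limma's test, where 1.04% of all genes tested were higher and 0.35% lower. Of the 76, 7 had an unadjusted p under 0.05, as did 1959 of the 14008 genes tested. The median log2 difference was -0.09, against 0.02 over all genes.

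Array by array, the median of the 76 genes relative to the ES mean on the log2 scale was -0.06 and -0.15 in line 2, 0.02 and 0.01 in line 1, and 0.11 and 0.07 in line 3, with the ES arrays at -0.03 and 0.03. Thus the line 2 arrays were the lowest of the 8 and the line 3 arrays the highest, and the line 2 arrays differed from each other. The median of all genes in the line 2 arrays was 0.08 in both.

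Summed signals of some markers of other cell types differed between the lines. The summed signal of 9 fibroblast markers was 435 to 491 in line 2, 299 to 302 in line 1 and 283 to 289 in line 3, against 248 to 270 in ES cells. Much of the line 2 excess was Pdgfrb, with signals of 247 and 177 in line 2, against 58 and 56 in ES cells. Only 1 of the 9 was over the floor in every array, and Col1a1, Twist2 and Postn were at or under it in every array. The summed signal of 6 trophoblast markers was 3774 to 4192 in line 2, 2665 to 3138 in line 1 and 2403 to 2805 in line 3, against 2200 to 2236 in ES cells. Of the trophoblast markers, 4 were over the floor in every array. Most of the sum was Tfap2c, with signals of 3056 and 3556 in line 2, against 1694 and 1532 in ES cells. Tfap2c was thus well over the floor in the ES cells too, and its log2 difference in line 2 was 1.03 (limma adjusted p = 3.55e-05). The summed signal of 5 neural markers was 705 to 756 in line 2, 982 to 1057 in line 1 and 952 to 960 in line 3, against 599 to 715 in ES cells, so line 2 was not the highest. The summed signal of 5 primitive endoderm markers was 293 to 310 in line 2, against 294 in both ES arrays, so the ranges overlapped. In line 2, 1 of 5 tested markers was higher in each of the fibroblast, trophoblast and neural lists, namely Pdgfrb, Tfap2c and Map2. Of the 5 primitive endoderm markers 0 were higher. In each of these lists 0 were lower. Of all genes tested, 16.1% were higher and 10.6% lower in line 2. The part of these markers in the line 2 differences was not tested.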

How the data were processed

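Gene expression was measured on Affymetrix arrays, 8 in all. The authors deposited 1 linear intensity per probe set and array, computed with MAS5 per the submitters' processing notes, and it was used as deposited. Its scaling target and detection calls were not used here.

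The platform annotation gave 1 symbol for 34945 of 45101 probe sets, several for 932 and none for 9160, beside 64 controls. Of those with 1 symbol, 34741 matched a RefSeq gene by entrez identifier and 0 symbols changed. Of the 76 genes, 34 had 1 probe set and 42 had several. Assignment of genes to subunits and lists came from general knowledge.

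Values were taken as log2(signal + 12.4), the pseudocount being the 20th percentile of all signals. The changes of dim genes are understated on this scale. Probe sets were kept if they exceeded 37.1, the 40th percentile, in at least 2 arrays, and the probe set with the highest mean stood for its gene. Tests used limma 3.58.1 (R 4.3.3; lmFit, eBayes with trend, two-sided) in a group-means model over all 8 arrays, with Benjamini-Hochberg adjustment over 14008 genes. The model had 4 residual degrees of freedom, 12.3 after moderation, and was tested on simulated data. The number of arrays limits the precision. The 7 comparisons were each line and the mean of the lines against ES cells, and the lines against each other. Alternatives changed the scaling, pseudocount, filter, probe-set rule, variance model, samples and replicate block.

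The rule for named genes took up to 6 called genes per direction and comparison, by size of change. It also took genes called in at least 2 lines (there were 0) and genes with opposite probe sets (0). A fixed set was added: Mrpl10, Mrpl12, Mrpl36, Mrpl44, Mrpl45, Mrps12, Mrps16, Mrps18a, Mrps18b, Mrps18c, Mrps30 and Mrps36. Signals are not printed for all of these genes, and some further genes, such as Mrpl52, are named outside the rule. The genes, lists and rules were chosen with earlier results of these data known. Promoter windows came from RefSeq (GRCm38.p6), which held 67 of the 76 genes. Mrpl30 and Mrpl53, on probe sets with several symbols, were not analysed here.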

Additional observations from a re-analysis of the deposited data

Results flagged for a closer look

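The groups of 2 arrays were too small for a check of single arrays. Differences between iPS lines, each tested by the limma contrast of the lines themselves, were found for the genes below.

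In line 1 against line 2 the log2 differences were 0.62 for Mrps18b, 0.47 for Mrpl16, 0.46 for Mrps34, 0.46 for Mrpl20, 0.43 for Mrpl19, 0.42 for Mrpl17, 0.40 for Mrpl12 and 0.25 for Mrpl10, all higher in line 1. Mrpl23 at -0.30 and Mrpl32 at -0.23 were lower in line 1. The calls of Mrpl17 and Mrpl19 rested on the brightest probe set of each gene. When each gene's probe sets were averaged, their differences were 0.15 and 0.18 and did not pass (limma adjusted p = 0.562 and 0.482). Mrpl10, Mrpl23 and Mrpl32 lost their calls when single arrays of either line were left out, with adjusted p-values of 0.0782 to 0.177 for Mrpl10, 0.0855 and 0.125 for Mrpl23 and 0.0501 to 0.089 for Mrpl32. The call of Mrpl10 was also lost without either ES array, at 0.0565 and 0.0567.

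In line 2 against line 3 the log2 differences were -0.79 for Mrps18b, -0.67 for Mrps34, -0.57 for Mrpl20, -0.52 for Mrpl19, -0.50 for Mrpl36, -0.50 for Mrpl17, -0.48 for Mrpl12, -0.29 for Mrpl10 and -0.21 for Mrpl44, all lower in line 2. Mrpl14 at 0.37, Mrpl23 at 0.31 and Mrpl32 at 0.20 were higher in line 2. With its probe sets averaged, Mrpl19 had a difference of -0.20 and did not pass (limma adjusted p = 0.376). The calls of Mrpl10, Mrpl14, Mrpl23, Mrpl32 and Mrpl44 were lost without 1 or more single arrays of these lines, with adjusted p-values of 0.0535 to 0.211.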

How the results depend on the processing

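Named values were recomputed under 20 or 21 alternatives, and 810 of 902 stayed in direction and on their side of the threshold, 83 lost a call, 1 gained one and 8 changed sign. In line 2 against ES cells the calls of Mrpl12, Mrpl23, Mrps2, Mrps7, Mrps18b and Mrps34 held under all 20 alternatives run. Without a trend in the variance the called genes numbered 12 in line 2 (27 with it), 0 in line 3 (2), 0 in the mean (3), 7 in line 1 against line 2 (28) and 20 in line 2 against line 3 (43). Calls over all genes tested fell as well. In line 2 they went from 2260 higher and 1483 lower to 1551 and 893. In line 3 they went from 221 higher and 361 lower to 10 and 12. In line 3 the count was 1 with no filter, 0 with the mean of probe sets and 0 with every probe set on its own. In the mean it was 1 with the mean of probe sets, 0 with line means as samples and 1 without line 2, which was none of the 3. Leaving out 1 array in turn gave 0 to 4 called genes in the mean, 0 to 1 in line 1, 18 to 27 in line 2, 0 to 3 in line 3, 13 to 28 in line 1 against line 2, 27 to 45 in line 2 against line 3 and 0 in line 1 against line 3. The 1 gene in line 1, without line 1 replicate 1, was Mrpl33, at 0.87.

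Scaling moved the calls of all genes and of the family. Line 2 had 2260 genes higher and 1483 lower as deposited, 1726 and 1895 after quantile normalization, and 1430 and 2248 with arrays centred on their medians, and the median of all genes was 0.07, -0.01 and -0.06. Of the 76 genes, 24 were lower and 2 higher after quantile normalization, with a median of -0.08, and 35 lower and 1 higher after centring, with a median of -0.23. Centring also ended the calls of Mrpl32 and, between lines, those of Mrpl14 and Mrpl23. Quantile normalization ended the calls of Mrpl14 and Mrpl44 in line 2 against line 3. Their differences were then 0.28 and -0.18 (limma adjusted p = 0.0809 and 0.0615). Line 2 values of uncalled genes that changed sign were, after centring, -0.043 for Mrpl45, -0.11 for Mrps16, -0.088 for Mrps18a, -0.12 for Mrps30 and -0.12 for Mrps36. Leaving out 1 array in turn gave -0.066 to 0.081 for Mrps36 and -0.0064 to 0.031 for Mrps30. The causes were not tested.

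The labels do not say whether equal replicate numbers pair the arrays. Deviations of same-numbered arrays from their group means correlated at -0.011 to 0.030 over all genes tested. Thus no broad shared deviation was seen, which does not settle whether they were handled together. With the replicate number as a block, 4 genes were called in the mean, 0 in line 1, 27 in line 2, 3 in line 3, 28 in line 1 against line 2, 0 in line 1 against line 3 and 43 in line 2 against line 3. The added genes were Mrpl36 in the mean (adjusted p = 0.0422) and Mrpl33 in line 3 (0.0447). With 2 arrays a group, the called line 2 difference closest to 0 was -0.21 on the log2 scale.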

Other observations

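Mrpl23 lies on mouse chromosome 7 close to Igf2, a growth factor gene expressed from the paternal copy. Igf2 had signals of 352 and 294 in line 1, 330 and 340 in line 2 and 197 and 182 in line 3, against 175 and 191 in ES cells. It was higher in lines 1 and 2, by 0.78 and 0.83 on the log2 scale (limma adjusted p = 0.0176 and 0.00137), and had a difference of 0.05 in line 3. Of the other neighbours tested, Ctsd was lower in line 3, with a difference of -0.38 (limma adjusted p = 0.0409), and did not pass in line 1 (-0.31) or line 2 (0.02), and the dim genes Syt8 and Ins2 did not pass in any line. Mrpl23 had differences of 0.18 in line 1, 0.48 in line 2 and 0.16 in line 3. These neighbours were examined after the values of Mrpl23 were seen.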
